A study of Mus musculus with 22 samples.

Results

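The comparison described here sets the chimera C1C3a against C1+14 in mouse embryonic stem cells. Each is a derivative of DUX, and the members are the 2 libraries labelled C1C3a and the 2 labelled C1+14, 4 of the 22 libraries of the series. Poly(A) RNA was sequenced from a mouse embryonic stem cell line labelled Dux-/- in which a transgene for mCherry, a red fluorescent protein, alone or joined to DUX or a DUX derivative, was induced with doxycycline. Both groups, and every other group used, carried the same Dux-/- background, were grown in 2iLIF, the medium with inhibitors and leukemia inhibitory factor that holds stem cells in the naive state, and received doxycycline at 0.25 ug/mL for 12 hours, starting 24 hours after plating. The genotypes are given as mCherry-C1C3a Dux and mCherry-C1+14 Dux. The 5 further groups of the same table are used beside them: full-length DUX (FL), C3+14, the chimeras C1C3b and C1C3c, and mCherry alone, 2 libraries each. The labels do not spell out what C1, C3, 14 or the letters a, b and c stand for, nor whether a line is 1 clone or whether replicates came from separate cultures, so p-values measure the spread between these libraries only.

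DUX is a transcription factor with a pair of homeodomains that is expressed briefly when the mouse embryo has 2 cells. It binds many sites in the genome, a large part of them in endogenous retroviral repeats of the MERVL class, and turns on genes of the first wave of zygotic transcription, among them the Zscan4, Tcstv, Usp17-like and Eif1a-like families. The homeodomains bind DNA, and the carboxy-terminal part carries the activating function and recruits the acetyltransferases p300 and CBP. Embryonic stem cells enter a 2-cell-like state of this kind rarely on their own, and forced expression of DUX pushes many of them into it. C1+14 is called inactive in the name of the comparison, so the question asked was which genes and pathways differ between C1C3a and C1+14.

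The libraries held 32543856 and 29559780 reads in C1C3a and 24051548 and 28635782 in C1+14, within the range of the table (21059953 to 32543856). Duxf3, the row for Dux itself (chromosome 10, 58229979 to 58232675, minus strand, GRCm38), had 0 reads in all 14 libraries, so it cannot check the labels, and the table has no row for the transgene. The values are read counts divided by 1 size factor per library. On this scale the library totals in reads, rounded, were 36023000 and 41847100 in C1C3a against 17580500 and 17757100 in C1+14. The median log2 fold change over all genes tested was 0.13 on the deposited scale, -0.06 with TMM factors, -0.27 after quantile normalization and -0.94 on a per-million scale (reads divided by the library's total), and directions are therefore also given over these 4 scalings. Genes whose sampled 50-base stretches recur in a median of 20 or more genes, called high-copy here, held 1.66 to 2.15% of the reads in FL, the C1C3 chimeras and C1+14 but 0.295 to 0.340% in C3+14 and mCherry. C1C3a and C1+14 are thus of the same kind, and levels of multi-copy genes set against C3+14 or mCherry cross the kinds. The part of that gap in any result was not tested. Replicates correlated across genes with r = 0.973 in C1C3a and 0.981 in C1+14, and their reads differed by more than sampling noise. Each library was counted as a replicate, but this spread does not show whether the replicates came from separate cultures. Stem cell identity was checked on its markers. Pou5f1 had 14877 and 19872 normalised reads in C1C3a and 9781 and 11356 in C1+14. Sox2 had 1777 and 1990.4 normalised reads in C1C3a and 2744 and 2549 in C1+14. Nanog had 8928 and 8971 normalised reads in C1C3a and 11149 and 9195 in C1+14, and none of these genes was called. Of the other markers, Zfp42 (log2 fold change 0.52) and Dppa5a (0.84) were not called, and Esrrb was called lower (-1.20). On the per-million scale the log2 fold changes were -0.43 for Pou5f1, -1.63 for Sox2 and -1.31 for Nanog, where the median of all genes was -0.94.

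Genes that differed between the groups took up most of the reads in C1C3a. Genes higher in C1C3a than in C1+14 held 64.7 and 67.0% of the reads in the C1C3a libraries against 29.1 and 29.1% in C1+14, and genes lower in C1C3a held 1.66 and 1.36% against 9.93 and 9.59%. The calls come in part from these libraries, so the shares are a description. The genes called higher also include abundant ribosomal protein and mitochondrial genes whose calls depended on the scaling. In bulk RNA, more cells in a state and more RNA per cell cannot be told apart. Genes were called with limma on log2(value + 1) over all 14 libraries, where the adjusted p (Benjamini-Hochberg, over all genes tested) was under 0.05 and the log2 fold change was 1 or more in either direction. Of 21584 genes tested 8799 were called, which is 40.8%. Of these 5059 were higher in C1C3a (23.4% of the genes tested) and 3740 were lower (17.3%). All 3740 falls were called under each of the 4 scalings, as were 2499 of the 5059 rises. The other scalings put the median of all genes below the deposited one (-0.06, -0.27 and -0.94 against 0.13). A fall called as deposited could therefore hardly be lost. In this comparison and its lists below, a call kept under all 4 scalings is thus a check of rises and not of falls. The share of called genes that were higher was 57.5% as deposited, 48.9% with TMM factors, 39.1% after quantile normalization and 21.3% on the per-million scale. Sequence shared between genes bears mainly on the rises. At least 20% of the sampled 50-base stretches also occurred in another gene for 40.0% of the genes that rose and 5.94% of those that fell, and the counting of such reads is not given in the sources used here. Among the 17355 genes without shared sequence 3033 rose and 3518 fell.

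**Figure D1:**
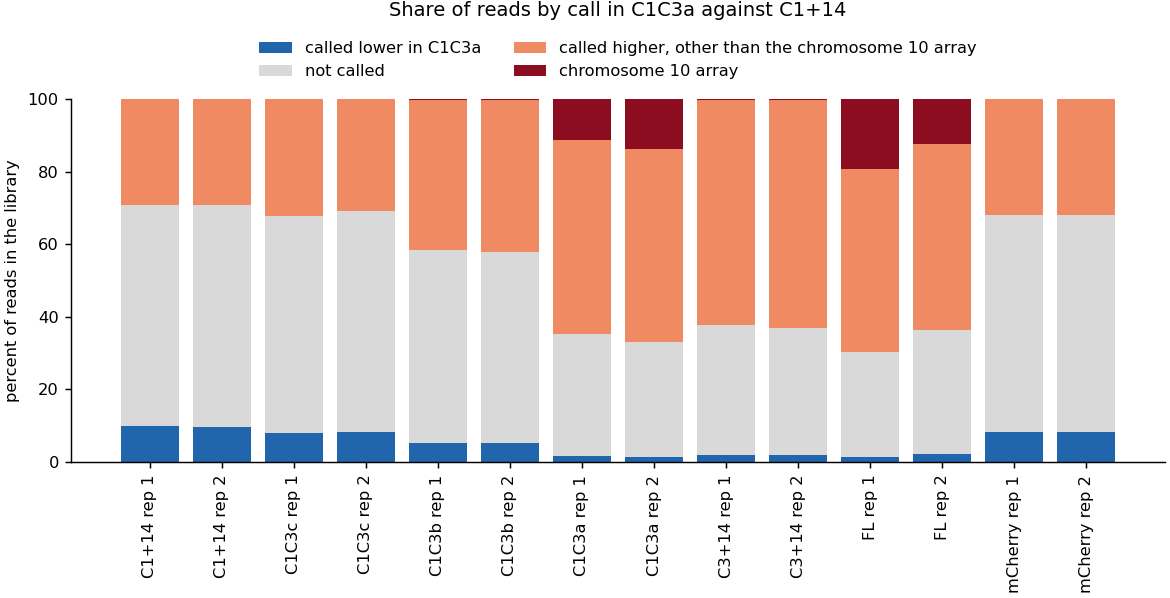
Percent of the reads of each library that fell in genes called lower in C1C3a than in C1+14, in genes not called, in genes called higher other than the chromosome 10 array, and in that array of 7 genes (vertical axis, linear; 14 libraries along the horizontal axis). The 2 C1C3a libraries have 64.7 and 67.0% of their reads in genes called higher, and the 2 C1+14 libraries 29.1 and 29.1%; the calls come from these 4 libraries in part, so their bars are a description.

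Genes of the 2-cell embryo rose nearly as a whole. Over 9 lists of such genes, 76 were tested, 68 rose and 5 fell, with a median log2 fold change of 8.92 (8.41 with the 32 genes at 3 reads or fewer in both C1+14 libraries set to that floor), where the median of all genes was 0.13. Together they held 4.18 and 4.95% of the reads of C1C3a, 0.0640 and 0.0699% of those of C1+14 and 0.0945 and 0.0964% of those of mCherry. The lists were written with earlier results of these data known, so their direction is a description. Zscan4 genes code for zinc finger proteins that mark the 2-cell state and act on telomeres, and all 6 rose (median 15.75, or 15.48 at the floor). Zscan4c had 175352 and 258579 normalised reads in C1C3a and 6.58 and 1.86 in C1+14 (limma, log2 fold change 15.48, SE 0.38, adjusted p 1.65e-12, and 16.18 without replicate 1 of C1+14). Both C1C3a libraries were far above both C1+14 libraries, but 86.0% of its stretches are shared, so reads may be split within the family. The Tcstv family, another set of small genes restricted to the 2-cell stage, rose in 6 of 6 (median 14.35, or 13.34 at the floor). Tcstv3 had 19442 and 33355 normalised reads in C1C3a and 0 and 0 in C1+14, at least 13026-fold higher when the empty libraries are given 3 reads each, and Tcstv1, which has under 20% shared sequence, had 1398 and 1687 normalised reads in C1C3a and 0 and 0 in C1+14, at least 761-fold higher. Neither gene was detected in either C1+14 library.

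The remaining families rose nearly as a whole. Usp17-like deubiquitinases rose in 5 of 5 (median 12.20), and Usp17la had 11806 and 10245 normalised reads in C1C3a and 7.31 and 13.6 in C1+14 (log2 fold change 9.96, SE 0.26, adjusted p 3.86e-12 by limma). The Eif1a-like genes, copies related to a translation initiation factor, rose in 10 of 10 (median 13.70), 9 of them under all 4 scalings. Gm21936, an Eif1a-like gene, had 6916 and 8481 normalised reads in C1C3a and 0 and 0 in C1+14, at least 3799-fold higher. Tdpoz genes, which code for proteins with MATH and BTB domains, rose in 5 of 5 (median 12.91, or 11.92 at the floor), and Tdpoz4 had 8859 and 15217 normalised reads in C1C3a and 0 and 0 in C1+14, at least 5940-fold higher. Neither gene had a read in C1+14, and both were abundant in both C1C3a libraries. Obox genes, homeobox genes of the oocyte and early embryo, rose in 6 of 6 (median 4.94, or 4.08 at the floor), and Obox3 had 111 and 212 normalised reads in C1C3a and 0 and 0 in C1+14, at least 79.7-fold higher. Of 12 Pramel and Pramef genes, relatives of the cancer-testis antigen PRAME, 8 rose and 2 fell (1 when replicate 1 of C1C3a or of C1+14 is left out). Pramel7, which promotes the naive ground state, had 1022 and 845 normalised reads in C1C3a and 6.58 and 4.96 in C1+14 (log2 fold change 7.11), whereas Pramef12 fell from 1642 and 1658 to 697 and 813 (log2 fold change -1.13). Groups did not overlap for either gene. Duxbl1, a relative of DUX that is itself a DUX target, had 2617 and 2704 normalised reads in C1C3a and 2.92 and 4.34 in C1+14 (log2 fold change 9.18), with 97.0% of its stretches shared.

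Markers of the 2-cell state that exist in few copies are less touched by shared reads, and most of them rose. Of 20 tested, 17 rose and 3 fell (median 5.77). The 3 that fell were AU018091 (log2 fold change -1.38), Zfp750 (-1.87) and Zscan5b (-2.86, with -3.62 without replicate 1 of C1C3a and -2.10 without replicate 2). Zfp352, a retroposed zinc finger gene of the 2-cell embryo (chromosome 4, 90218820 to 90225702, GRCm38), had 22928 and 29459 normalised reads in C1C3a and 0 and 0 in C1+14, at least 12925-fold higher. Tmem92, which codes for a transmembrane protein, had 25454 and 21721 normalised reads in C1C3a and 0.731 and 4.34 in C1+14 (limma, log2 fold change 12.92, SE 0.44, adjusted p 4.24e-11). Its fold change was 12.10 without replicate 1 of C1+14 and 13.73 without replicate 2. The C1C3a libraries were close to each other and far above either C1+14 library. Nelfa, a subunit of the negative elongation factor that also acts upstream of the 2-cell program, was already expressed in C1+14 and rose from 1200.2 and 1370.4 to 45926 and 62324 normalised reads (log2 fold change 5.38, SE 0.16, adjusted p 1.19e-11 by limma). Arg2, the mitochondrial arginase, had 893 and 1188 normalised reads in C1C3a and 2.92 and 7.44 in C1+14 (log2 fold change 7.49). Dppa2, an activator of Dux, rose from 1706 and 1554 to 15490.1 and 16638 (log2 fold change 3.30), and Dppa3 or Stella, a maternal factor that guards methylation in the zygote, from 32.2 and 42.2 to 839 and 742 (log2 fold change 4.38). For Dppa4, the partner of Dppa2, the values were 1489.9 and 1726 in C1C3a and 2498 and 2450.0 in C1+14, and it was not called. Of the 4 Dppa genes tested 2 rose, and 3 of the 4 have shared sequence, so reads may be split for these too.

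Beyond the lists, the 12 largest rises of protein-coding genes without shared sequence included receptors and channels. Ankrd22, which codes for an ankyrin repeat protein (chromosome 19, 34121469 to 34166053, GRCm38), had 4253 and 6284 normalised reads in C1C3a and 0 and 0 in C1+14 (at least 2600-fold higher). Chrm3, a muscarinic acetylcholine receptor, had 1754 and 2664 normalised reads in C1C3a and 0 and 0 in C1+14 (at least 1090-fold higher), and Calhm3, a subunit of a large-pore ion channel, 1557 and 1779.5 normalised reads in C1C3a and 0 and 0 in C1+14 (at least 823-fold higher). None of these 3 genes had a read in C1+14. Tmem72, another transmembrane protein gene, was detected in C1+14 and had 46077 and 65419.9 normalised reads in C1C3a and 32.2 and 16.1 in C1+14 (log2 fold change 11.17). Vmn1r227, a vomeronasal receptor gene, had 1203 and 1934 normalised reads in C1C3a and 0 and 0 in C1+14 (at least 774-fold higher), and Spdye4b, of the Speedy family of cyclin-dependent kinase activators, 1203 and 2152 normalised reads in C1C3a and 0 and 0 in C1+14 (at least 828-fold higher).

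**Figure D2:**
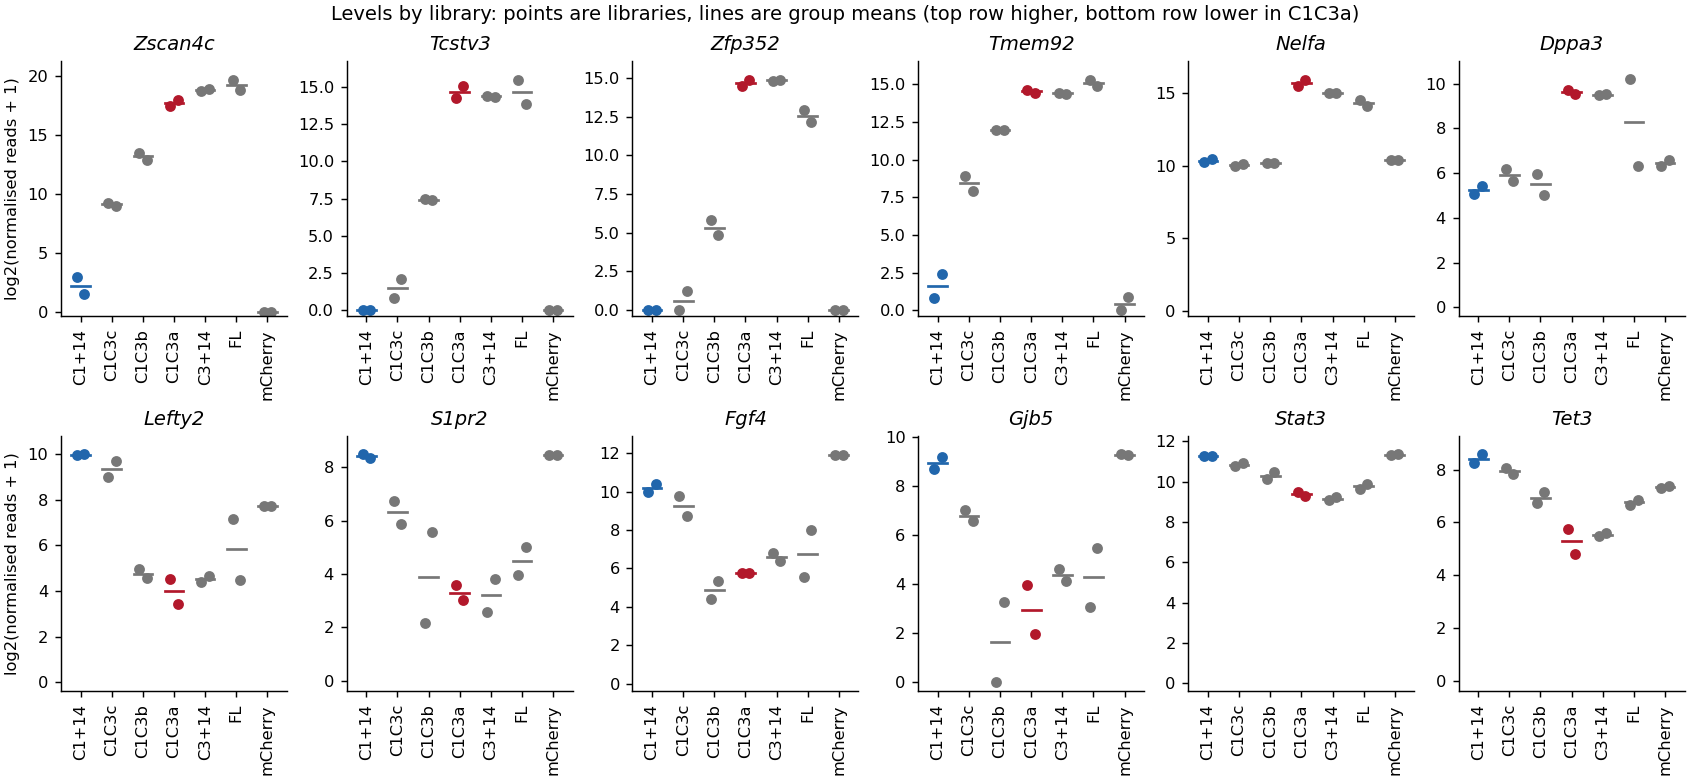
Level of 12 genes in 14 libraries (vertical axes, log2 of normalised reads + 1; groups along the horizontal axes; points are libraries and lines are group means of 2 libraries). The 6 genes of the upper row are higher in both C1C3a libraries (red) than in both C1+14 libraries (blue) and the 6 genes of the lower row are lower; the other 5 groups are in grey.

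The gene with the most reads in C1C3a comes from a tandem array on chromosome 10 that holds 7 almost identical genes (104142987 to 104196522, GRCm38). Gm21293 had 654458 and 922797 normalised reads in C1C3a, 0.731 and 1.24 in C1+14 and 0 in both mCherry libraries. The array held 11.2 and 13.6% of all reads in C1C3a, 19.2 and 12.3% in FL, 0.0597 and 0.0527% in C1C3b and 0.102 and 0.116% in C3+14. C1C3a and FL were the groups with a large share. C3+14 is of the other library kind, with few reads in high-copy genes, and the part of that in its low share was not tested. Promoter windows were searched for GATTNAATC, a core of the sequence that DUX binds, which reads the same on both strands. The motif and the genes shown were chosen after their values were seen. A window runs from 250 bases before to 50 bases after a RefSeq start site (GRCm38.p6). Among 27025 genes with a window, 83 held a match (0.307%). Among genes that rose, 22 of 2012 did (1.09%), among those that rose from 3 reads or fewer in both C1+14 libraries 14 of 463 (3.02%), among genes that fell 4 of 2654 (0.151%) and among genes not called 14 of 8294 (0.169%). Matches among the rises are not independent. They include Gm21293, Gm8764, Gm21304, Gm21312, Gm20765 and Gm4340 of the array, and Gm12724, Gm33248 and Gm35974, whose windows resemble that of Gm21293. Gm13043, Gm13040 and Gm13057, also among them, have 99 to 100% of their stretches shared. These shares are therefore a description and not an enrichment over separate genes. Of the tested genes 13 had AGATTGAATCT, the most frequent form of the core with 1 base on each side in windows of genes that rose, on either strand, and 13 of them rose. This form was picked from genes that rose and some of these windows are near-copies of each other, so the count is a description. It occurred in 0.0925% of all genes with a window.

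These 6 windows from genes that rose are shown because each carries the motif, given in capitals, before its start site. They lie at chr10:104142737-104143036, plus strand (Gm21293), chr4:106236872-106237171, plus strand (Gm12724), chr7:129667175-129667474, plus strand (Gm33248), chr16:3468210-3468509, plus strand (Gm35974), chr4:143511093-143511392, plus strand (Gm13043) and chr13:120262845-120263144, plus strand (AF067061), in GRCm38.p6 from RefSeq, and each is printed 5′ to 3′ on the strand of its gene.
Gm21293: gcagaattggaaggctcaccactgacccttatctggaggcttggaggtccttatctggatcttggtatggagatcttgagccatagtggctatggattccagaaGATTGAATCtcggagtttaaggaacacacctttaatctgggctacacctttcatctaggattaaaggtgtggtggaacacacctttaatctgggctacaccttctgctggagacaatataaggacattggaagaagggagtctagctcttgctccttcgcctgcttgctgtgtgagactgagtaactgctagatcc
Gm12724: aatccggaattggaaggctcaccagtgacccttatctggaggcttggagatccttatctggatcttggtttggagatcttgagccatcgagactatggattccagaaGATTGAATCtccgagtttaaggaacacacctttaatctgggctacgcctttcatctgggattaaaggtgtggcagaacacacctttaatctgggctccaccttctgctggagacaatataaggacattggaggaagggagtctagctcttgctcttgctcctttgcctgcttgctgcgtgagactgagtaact
Gm33248: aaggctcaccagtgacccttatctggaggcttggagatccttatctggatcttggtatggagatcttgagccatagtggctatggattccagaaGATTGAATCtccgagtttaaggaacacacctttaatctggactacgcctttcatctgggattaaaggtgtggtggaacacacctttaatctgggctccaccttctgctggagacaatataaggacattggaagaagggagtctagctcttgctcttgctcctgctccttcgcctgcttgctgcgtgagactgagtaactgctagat
Gm35974: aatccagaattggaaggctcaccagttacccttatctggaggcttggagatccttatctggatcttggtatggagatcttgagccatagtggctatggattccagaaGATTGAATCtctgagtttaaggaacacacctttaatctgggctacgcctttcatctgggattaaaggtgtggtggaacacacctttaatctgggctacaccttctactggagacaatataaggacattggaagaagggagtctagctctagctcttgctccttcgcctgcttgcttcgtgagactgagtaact
Gm13043: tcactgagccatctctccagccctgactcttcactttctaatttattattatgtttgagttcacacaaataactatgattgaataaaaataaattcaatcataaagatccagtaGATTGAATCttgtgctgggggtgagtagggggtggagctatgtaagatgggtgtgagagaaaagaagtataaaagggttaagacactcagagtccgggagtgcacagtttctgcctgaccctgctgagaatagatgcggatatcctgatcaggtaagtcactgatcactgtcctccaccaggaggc
AF067061: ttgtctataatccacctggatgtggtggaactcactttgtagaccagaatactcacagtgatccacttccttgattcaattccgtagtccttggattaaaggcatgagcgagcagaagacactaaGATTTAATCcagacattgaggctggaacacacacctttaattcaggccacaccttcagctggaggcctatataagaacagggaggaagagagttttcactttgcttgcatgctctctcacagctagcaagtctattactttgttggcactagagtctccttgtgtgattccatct

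Aligned on the motif without gaps, the first 4 windows share 86.2 to 95.0% of their bases with each other although the genes lie on 4 chromosomes. In the same alignment the windows of Gm13043 and AF067061 share 26.6 to 30.5% with those 4 or with each other. Related sequence at another distance from the motif is missed this way, so a low share does not show that windows are unrelated. After its motif the AF067061 window has a stretch that resembles part of the first 4 windows at another offset. Gm12724 had 2312 and 2878 normalised reads in C1C3a and 0 and 0 in C1+14 (at least 1281-fold higher), Gm33248 1644 and 2191 normalised reads in C1C3a and 0 and 0 in C1+14 (at least 946-fold higher) and Gm35974 1605 and 2197 normalised reads in C1C3a and 0 and 0 in C1+14 (at least 938-fold higher), each with under 20% shared sequence. These 3 genes were undetected in C1+14 and within a similar range of each other in C1C3a. Gm13043, in the Pramef cluster of chromosome 4, had 10227 and 11357 normalised reads in C1C3a and 5.12 and 4.96 in C1+14 (log2 fold change 10.80), and AF067061, a Tcstv family member on chromosome 13, 19579 and 24054 normalised reads in C1C3a and 0 and 0 in C1+14 (at least 10765-fold higher). A match in these windows is a description and not a site shown to be bound.

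Several clusters of related genes held a high share of rises. The genome was divided into windows of 1 Mb, 836 of which held at least 10 genes tested, and the clusters named next are read against the 23.4% of all genes tested that were higher in C1C3a. The Eif1a-like cluster on chromosome 12 had 37 of 50 genes higher between 87 and 88 Mb and 28 of 33 in the next window. The Obox cluster on chromosome 7 had 33 of 38 (15 to 16 Mb) and the Zscan4 cluster 19 of 29 (11 to 12 Mb). The Tdpoz cluster on chromosome 3 had 24 of 26 (93 to 94 Mb), the Sp110 region of chromosome 1 22 of 26 (85 to 86 Mb) and the Pramef cluster of chromosome 4 20 of 27 (143 to 144 Mb). Most of the genes that rose in these windows have shared sequence, so the counts within a cluster are not independent. Replication-dependent histone genes on chromosome 13 gave 2 further windows, with 32 of 39 higher between 23 and 24 Mb, 29 of them histone genes, and 25 of 39 between 21 and 22 Mb, 19 of them histone genes. All 58 protein-coding genes with a Hist symbol that were tested rose (median log2 fold change 5.10), 56 of them under all 4 scalings, and 46 have shared sequence. Hist1h3a, a histone H3 gene, had 753 and 769 normalised reads in C1C3a and 7.31 and 9.30 in C1+14 (limma, log2 fold change 6.36, SE 0.28, adjusted p 6.54e-10), and Hist1h2bc, a histone H2B gene, 784 and 725 normalised reads in C1C3a and 198 and 153 in C1+14 (log2 fold change 2.11). Histone messages of this class mostly end in a stem loop and lack a poly(A) tail, and the libraries were poly(A)-selected, so the values cover the tailed fraction. In C3+14 against mCherry 56 of the 58 were also called higher (median 4.56).

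The rises were also uneven over gene types. Among 15638 protein-coding genes 15.6% rose and 20.7% fell, against 23.4% and 17.3% of all genes tested. Among 891 long intergenic RNAs 39.3% rose and 16.2% fell. Among 2563 processed pseudogenes 47.9% rose and 2.61% fell, and 73.0% of them have shared sequence. Of small RNA genes, 69 of 84 microRNA genes rose (70.2% of them with shared sequence), 43 of 52 small nuclear RNA genes (78.8% shared) and 20 of 64 small nucleolar RNA genes (14.1% shared). A poly(A) library does not capture mature RNAs of these classes well.

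Many rises started from nothing detectable. 1548 of the genes that rose (30.6%) had 3 reads or fewer in both C1+14 libraries, and 522 of these are protein-coding. They took 16.2 and 19.4% of the C1C3a reads, and 456 had at least 100 reads in both C1C3a libraries. In the other direction 598 genes that fell had 3 reads or fewer in both C1C3a libraries, and 9 of them had at least 100 reads in both C1+14 libraries. A gene was tested when any 2 of the 14 libraries held at least 10 normalised reads, so some of these genes entered through another group. For a description of the other groups the 1088 with at least 10 normalised reads in both C1C3a libraries were kept, a choice made after the values were seen, and for them the other groups enter through the shared estimate of the spread alone. Of the 1088 genes, 992 were over 3 reads in both C3+14 libraries (91.2%), 891 in both FL libraries (81.9%), 389 in C1C3b (35.8%), 157 in C1C3c (14.4%) and 43 in mCherry (3.95%). Among the 556 of them without shared sequence, the median level was 84.1 and 88.4% of the C1C3a mean in the C3+14 libraries, 40.1 and 33.4% in FL, 0.241 and 0.625% in C1C3b and 0 in C1C3c. The C1C3a libraries themselves stood at 87.9 and 112%. The medians of FL lay below both C1C3a libraries, and those of C1C3b were under 1%. The genes were chosen by their C1C3a values, which can raise C1C3a above any group not used in the choice. These levels are therefore a description.

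**Figure D3:**
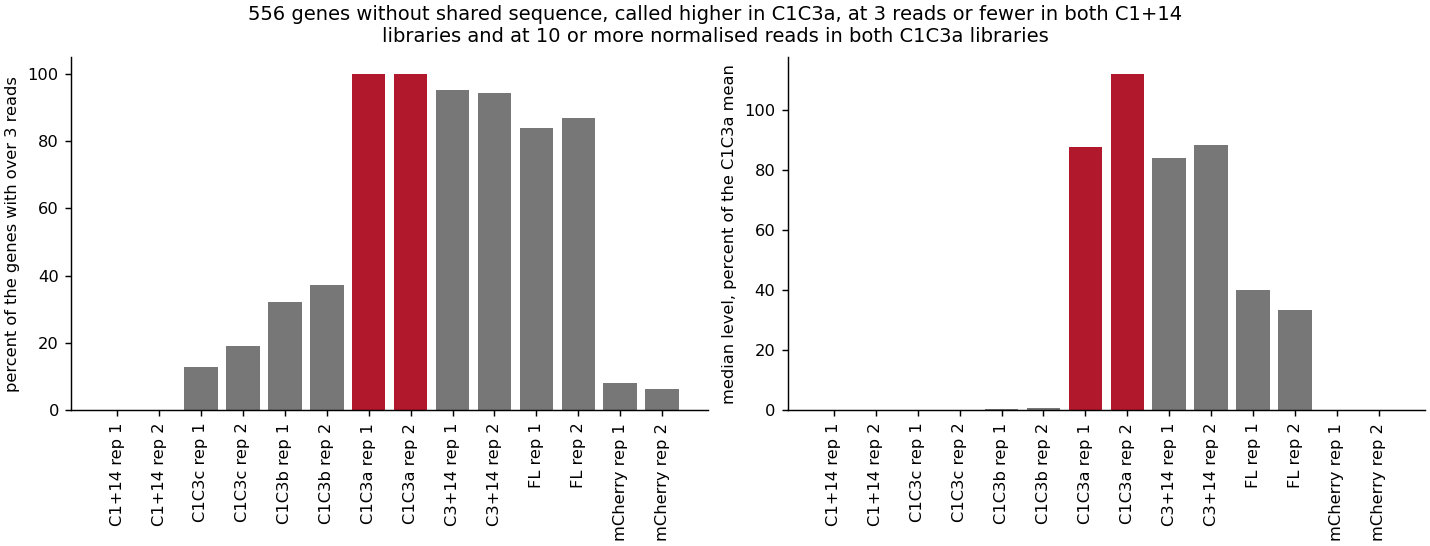
The 556 genes without shared sequence that rose in C1C3a from 3 reads or fewer in both C1+14 libraries to at least 10 normalised reads in both C1C3a libraries: percent of them with over 3 reads (left) and their median level as a percent of the C1C3a mean (right), for each of 14 libraries, C1C3a in red. The C1C3a and C1+14 bars follow from the choice of genes, and the other bars are set against a C1C3a level that this choice can raise. The C3+14 libraries reach 84.1 and 88.4% of the C1C3a level and the C1C3b libraries 0.241 and 0.625%.

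Transcripts of genes in signalling pathways of naive stem cells were among those that fell. Activity of the pathways was not measured. LIF signals through the receptor subunit gp130 (Il6st) to STAT3, and of 13 genes of this pathway 7 fell and 0 rose (median -1.51), the 7 under all 4 scalings. For comparison, 23.4% of all genes rose and 17.3% fell. After quantile normalization 16.4% of all genes were called higher and 25.5% lower, and on the per-million scale 12% and 44.4%, so the counts of the lists shift with the scaling as well. Stat3 had 713 and 623 normalised reads in C1C3a and 2493 and 2489.7 in C1+14 (limma, log2 fold change -1.90, SE 0.14, adjusted p 1.13e-07), and Il6st fell from 1873 and 1928 to 397 and 292 (log2 fold change -2.48). The libraries of the 2 groups did not overlap for either gene, and replicates lay close together. The feedback inhibitors Socs3 (log2 fold change -2.33) and Socs2 (-2.24) and the cofactor Bcl3 (-3.21) fell as well. The kinase Jak1 had 2322 and 2548 normalised reads in C1C3a and 2188 and 2214 in C1+14 and was not called.

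Fgf4, the autocrine ligand that primes stem cells for differentiation through ERK, had 53.1 and 53.8 normalised reads in C1C3a and 1008 and 1343 in C1+14 (limma, log2 fold change -4.42, SE 0.59, adjusted p 3.03e-05). Among 16 genes of the FGF and ERK pathway 5 rose and 5 fell (median -0.10), where all genes gave 23.4% and 17.3%. The receptor Fgfr1 fell from 2574 and 2725 to 658 and 599 (log2 fold change -2.08) and the ERK-responsive factor Etv5 from 7657 and 6614 to 1826 and 2300.5 (-1.80). The immediate early gene Egr1, in contrast, rose from 5.85 and 5.58 to 239 and 229 (5.13), and the phosphatase Dusp5 from 84.1 and 58.3 to 385 and 269 (2.18). Ligand, receptor and some target genes were lower while other target genes were higher. Of 17 Nodal and BMP genes 6 fell and 1 rose (median -0.83). Lefty2, an inhibitor of Nodal that is also its target, had 22.1 and 9.91 normalised reads in C1C3a and 986 and 1014 in C1+14 (limma, log2 fold change -5.98, SE 0.63, adjusted p 3.65e-06), and Lefty1 fell from 657 and 763 to 70.8 and 42.5 (log2 fold change -3.67). Skil, a repressor of SMAD signalling, had a log2 fold change of -1.65. Of 20 WNT genes 6 fell and 2 rose (median -0.95). The receptor Fzd5 fell from 1854 and 1889 to 752 and 527 (-1.57). Ctnnb1, which codes for beta-catenin, had 11789.7 and 12718 normalised reads in C1C3a and 12741 and 12908 in C1+14 and was not called. The falls of these lists, 5, 6 and 6 genes, were called under all 4 scalings. On the per-million scale, where 12% of all genes were called higher and 44.4% lower, the FGF and ERK list had 1 higher and 8 lower, the Nodal and BMP list 0 higher and 13 lower and the WNT list 0 higher and 15 lower.

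Pluripotency factors were called in both directions, at counts to be read against all genes, of which 23.4% rose and 17.3% fell. Of 14 naive factors 4 fell and 2 rose (median -0.04), and the rises were 1 without replicate 2 of C1C3a and 0 under all 4 scalings together. Tfcp2l1, a naive factor downstream of LIF, fell from 19721 and 18999 to 5178 and 5432 normalised reads (limma, log2 fold change -1.87, SE 0.22, adjusted p 1.02e-05), and Esrrb, an orphan nuclear receptor, from 9776 and 8661 to 3710.3 and 4315 (log2 fold change -1.20). Nr5a2, a nuclear receptor active in early embryonic gene activation, had 1567 and 1539 normalised reads in C1C3a and 381 and 449.6 in C1+14 (log2 fold change 1.91 on the deposited scale and 0.77 on the per-million scale). Of 10 core genes 3 rose and 3 fell (median -0.17). Fbxo15, an F-box gene long used as a stem cell reporter, rose from 5693 and 5235 to 75845 and 79219.9 (3.83) and Sall4, a zinc finger factor, from 1882 and 2324 to 10246 and 13467 (2.49). Trim71, a repressor of messages that favour differentiation, fell from 2585 and 2569.7 to 421 and 442 (-2.58). For these 3 genes the direction held under all 4 scalings. Of 12 genes of the primed epiblast 4 rose and 3 fell (median -0.05), among them Sox3, a SoxB1 factor, which rose from 165 and 163 to 1035 and 917 (2.56). Of 30 repressors of the 2-cell state 5 rose and 3 fell, and their median turned from 0.22 on the deposited scale to -0.91 on the per-million scale. Zfp809, a KRAB zinc finger protein that silences retroviruses, rose from 1078 and 674 to 4707 and 5755 (2.61), and Rcor1, a subunit of the LSD1 corepressor complex, fell from 949.5 and 972 to 448 and 333 (-1.31). Against 12% of all genes higher and 44.4% lower on the per-million scale, the naive list had 0 higher and 8 lower, the core list 2 higher and 6 lower, the primed list 2 higher and 6 lower and the repressors 1 higher and 12 lower.

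Most of the junction genes tested fell. Of 17 junction and keratin genes 12 fell, all 12 under the 4 scalings, and 2 rose (median -1.56), where 23.4% of all genes rose and 17.3% fell. Cdh1, which codes for E-cadherin, fell from 11872 and 11639 to 5085 and 5482 normalised reads (limma, log2 fold change -1.15, SE 0.16, adjusted p 5.09e-05). The connexin genes Gja1 and Gjb5 fell too: Gja1 had 57.6 and 70.8 normalised reads in C1C3a and 546 and 359.7 in C1+14 (log2 fold change -2.78) and Gjb5 14.4 and 2.83 normalised reads in C1C3a and 406 and 574 in C1+14 (-5.98, with -6.98 without replicate 1 of C1C3a and -4.97 without replicate 2). Both C1C3a libraries were below both C1+14 libraries for each of these genes. The claudin gene Cldn4 had 25.5 and 34.0 normalised reads in C1C3a and 167 and 337 in C1+14 (-2.97). The 2 that rose were the simple epithelial keratins Krt8 (1.48, and 0.34 on the per-million scale) and Krt18 (2.05, and 0.93 on the per-million scale). In this list 0 rises were called under all 4 scalings. On the per-million scale it had 0 higher and 14 lower, where 12% of all genes were called higher and 44.4% lower. Of 19 matrix and integrin genes 6 fell and 0 rose (3 rose without replicate 2 of C1+14), and 11 were called lower after quantile normalization and 13 on the per-million scale. The integrin genes Itga5 (-1.77) and Itgav (-1.46) were lower, while Fn1, which codes for fibronectin, had 20298 and 18694 normalised reads in C1C3a and 26078 and 27804 in C1+14 and was not called. Among the 12 largest falls of protein-coding genes without shared sequence was S1pr2, a sphingosine 1-phosphate receptor, which had 11.1 and 7.08 normalised reads in C1C3a and 357 and 322 in C1+14 (limma, log2 fold change -5.10, SE 0.82, adjusted p 1.51e-04). Cacng5, an auxiliary subunit of calcium channels and glutamate receptors, was undetected in C1C3a and had 295 and 243 normalised reads in C1+14, at least 71.0-fold lower in C1C3a.

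Enzymes of sterol synthesis and factors of message decay fell in part, where 17.3% of all genes fell and 23.4% rose. Of 24 cholesterol synthesis and uptake genes 9 fell under all 4 scalings and 1 rose, Mvd (1.03), which was not called without replicate 1 of C1+14 (median -0.84). Hmgcs1, at the entry of the pathway, fell from 3562 and 4169 to 1603 and 1464 (-1.33). Both C1C3a libraries were below both C1+14 libraries. Of 14 factors of nonsense-mediated decay, which removes messages with early stop codons, 6 fell and 2 rose (median -0.90). Smg9, a factor of this decay, fell from 547 and 599.6 to 90.8 and 82.1 normalised reads (limma, log2 fold change -2.72, SE 0.22, adjusted p 2.84e-07). Eif4a3, the helicase of the exon junction complex, rose from 2172 and 2824 to 8277 and 9966 (1.87). Without replicate 1 of C1+14 or replicate 2 of C1C3a the count of rises in this list was 1. Of 12 genes of the Myc network 5 fell and 0 rose, among them the obligate partner Max, from 1897 and 1796 to 638 and 578 (-1.60), and the repressor Mnt, from 546 and 516 to 152 and 150.1 (-1.81). Of 24 p53 targets 4 fell and 1 rose (2 without replicate 2 of C1C3a). Bbc3, which codes for the cell death protein PUMA, had 52.0 and 26.9 normalised reads in C1C3a and 453 and 337 in C1+14 (-3.35), and Perp, a desmosomal p53 effector, 71.9 and 46.7 normalised reads in C1C3a and 641 and 428 in C1+14 (-3.15). Of 14 DNA methylation and demethylation enzymes 3 fell and 1 rose (2 without replicate 1 of C1C3a or of C1+14). Tet3, the dioxygenase of the zygote, had 53.1 and 26.9 normalised reads in C1C3a and 303 and 382 in C1+14 (limma, log2 fold change -3.14, SE 0.30, adjusted p 1.64e-06), and Tet2 439 and 522 normalised reads in C1C3a and 1933 and 1368 in C1+14 (-1.76). For this list and the p53 targets the share that fell was near the 17.3% of all genes. Dnmt1, the maintenance methyltransferase, had 6538 and 7179 normalised reads in C1C3a and 7539.8 and 8678 in C1+14 and was not called. Of 19 imprinted genes 7 fell, all under 4 scalings, and 6 rose, 2 of them under 4 scalings. The maternally expressed Meg3 fell from 2052 and 1508 to 382 and 358 (-2.25), and H19, also maternally expressed, rose from 51.9 and 79.4 to 525 and 511 (2.99). On the per-million scale, where 12% of all genes were called higher and 44.4% lower, the cholesterol list had 0 higher and 22 lower, the decay factors 0 higher and 9 lower, the Myc network 0 higher and 9 lower, the p53 targets 0 higher and 18 lower, the DNA methylation enzymes 0 higher and 11 lower and the imprinted genes 2 higher and 11 lower.

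Rises of abundant housekeeping classes depended on the scaling. Of 56 cytoplasmic ribosomal protein genes 55 rose on the deposited scale (median 1.44, with 23.4% of all genes higher), but 1 did under all 4 scalings, and the median was 0.02 after quantile normalization and 0.30 on the per-million scale, where the median of all genes was -0.94. They held 7.11 and 6.93% of the reads in C1C3a and 5.31 and 6.09% in C1+14. All 13 mitochondrial genome genes rose on the deposited scale (median 1.94) and 0 under all 4 scalings (medians 0.24 after quantile normalization and 0.80 on the per-million scale). Mitochondrial reads were 6.19 and 5.89% in C1C3a against 3.60 and 2.46% in C1+14. A share of the reads is itself a per-million value, so the size of this difference depends on the scaling. Of 22 ribosome biogenesis genes 8 rose and 0 fell, with a median of 0.89 that turned to -0.24 on the per-million scale. Ncl, which codes for nucleolin, had 59478 and 72211 normalised reads in C1C3a and 31802 and 18654 in C1+14 (log2 fold change 1.43, and -0.27 after quantile normalization).

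Of 22 genes of the integrated stress response, the ATF4-driven program for amino acid supply, 11 rose and 1 fell on the deposited scale (6 rose without replicate 1 of C1+14), and the median went from 1.03 to -0.09 on the per-million scale. Ppp1r15a, the phosphatase subunit GADD34, rose under all 4 scalings, from 519 and 562 to 2574 and 2446 normalised reads (limma, log2 fold change 2.21, SE 0.12, adjusted p 5.51e-09). Asns, asparagine synthetase, had 38654 and 38814 normalised reads in C1C3a and 8569 and 12199.9 in C1+14 (log2 fold change 1.92, and 0.79 on the per-million scale). Of 17 heat shock genes 5 rose and 0 fell, with a median of 0.69 that was -0.44 on the per-million scale. The inducible Hspa1b rose under all 4 scalings, from 61.4 and 96.1 to 1224 and 1539 (4.14), with 61.5% of its sequence shared, and its near-identical copy Hspa1a was similar (4.01). Of 17 germline genes 10 rose on the deposited scale (2 under all 4 scalings) and 1 fell, Brdt (-1.86), which was not called when any of 3 of the 4 libraries was left out. Tex19.1, a placental and germline gene that restrains retrotransposons, had 3724 and 3573 normalised reads in C1C3a and 694 and 849.5 in C1+14 (limma, log2 fold change 2.25, SE 0.17, adjusted p 1.24e-07). Of 29 cell cycle genes 2 rose and 2 fell (without replicate 1 of C1+14, 4 rose and 1 fell), with a median of 0.35 that was -0.78 on the per-million scale. Aurka, the mitotic kinase, had 5922 and 5606 normalised reads in C1C3a and 1455 and 1586 in C1+14 (1.92), and Cdk2, the kinase of S-phase entry, 780.4 and 813 normalised reads in C1C3a and 2268 and 2433 in C1+14 (-1.56). As deposited 23.4% of all genes rose and 17.3% fell. Against 12% of all genes higher and 44.4% lower on the per-million scale, the stress response list had 1 higher and 4 lower, the heat shock list 2 higher and 3 lower, the germline list 2 higher and 1 lower and the cell cycle list 0 higher and 11 lower.

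Further lists were called in both directions, where 23.4% of all genes rose and 17.3% fell. Of 17 coactivators and SWI/SNF subunits 2 rose and 2 fell (1 rose without replicate 2 of C1+14, and 1 fell without replicate 1 of C1C3a or replicate 2 of C1+14). Crebbp, which codes for the acetyltransferase CBP that DUX recruits, had 1825 and 1838 normalised reads in C1C3a and 851 and 789 in C1+14 (log2 fold change 1.16, and 0.02 on the per-million scale), and Smarca2, an ATPase of the SWI/SNF complex, fell from 349 and 277 to 84.1 and 65.1 (-2.06). Of 21 glycolysis genes 3 rose and 3 fell as deposited (1 rose without replicate 1 of C1+14), but 1 higher and 12 lower were called after quantile normalization and 0 higher and 12 lower on the per-million scale. The glucose transporter Slc2a3 fell from 17068 and 19780.0 to 5411 and 6546 normalised reads (limma, log2 fold change -1.63, SE 0.13, adjusted p 3.09e-07), and the hexokinase Hk2 from 8858 and 10771 to 2920.0 and 2862 (-1.76). Both genes were lower in both C1C3a libraries. Of 16 AP-1 and immediate early genes 6 rose, 3 of them under all 4 scalings, and 1 fell, with a median of 0.77 that was -0.34 on the per-million scale. Of 17 interferon and antiviral genes 4 rose and 3 fell, and Irf7, a master factor of the interferon response, had 35.4 and 34.0 normalised reads in C1C3a and 1.46 and 2.48 in C1+14 (3.61). Of 12 urea cycle, arginine and polyamine genes 3 rose, Arg2 among them, and 1 fell. Odc1, the first enzyme of polyamine synthesis, had 10336 and 11682 normalised reads in C1C3a and 8002 and 8121 in C1+14 and was not called. On the per-million scale, where 12% of all genes were called higher and 44.4% lower, the coactivator list had 0 higher and 9 lower, the AP-1 list 3 higher and 6 lower, the interferon list 2 higher and 10 lower and the urea cycle list 1 higher and 3 lower.

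**Figure D4:**
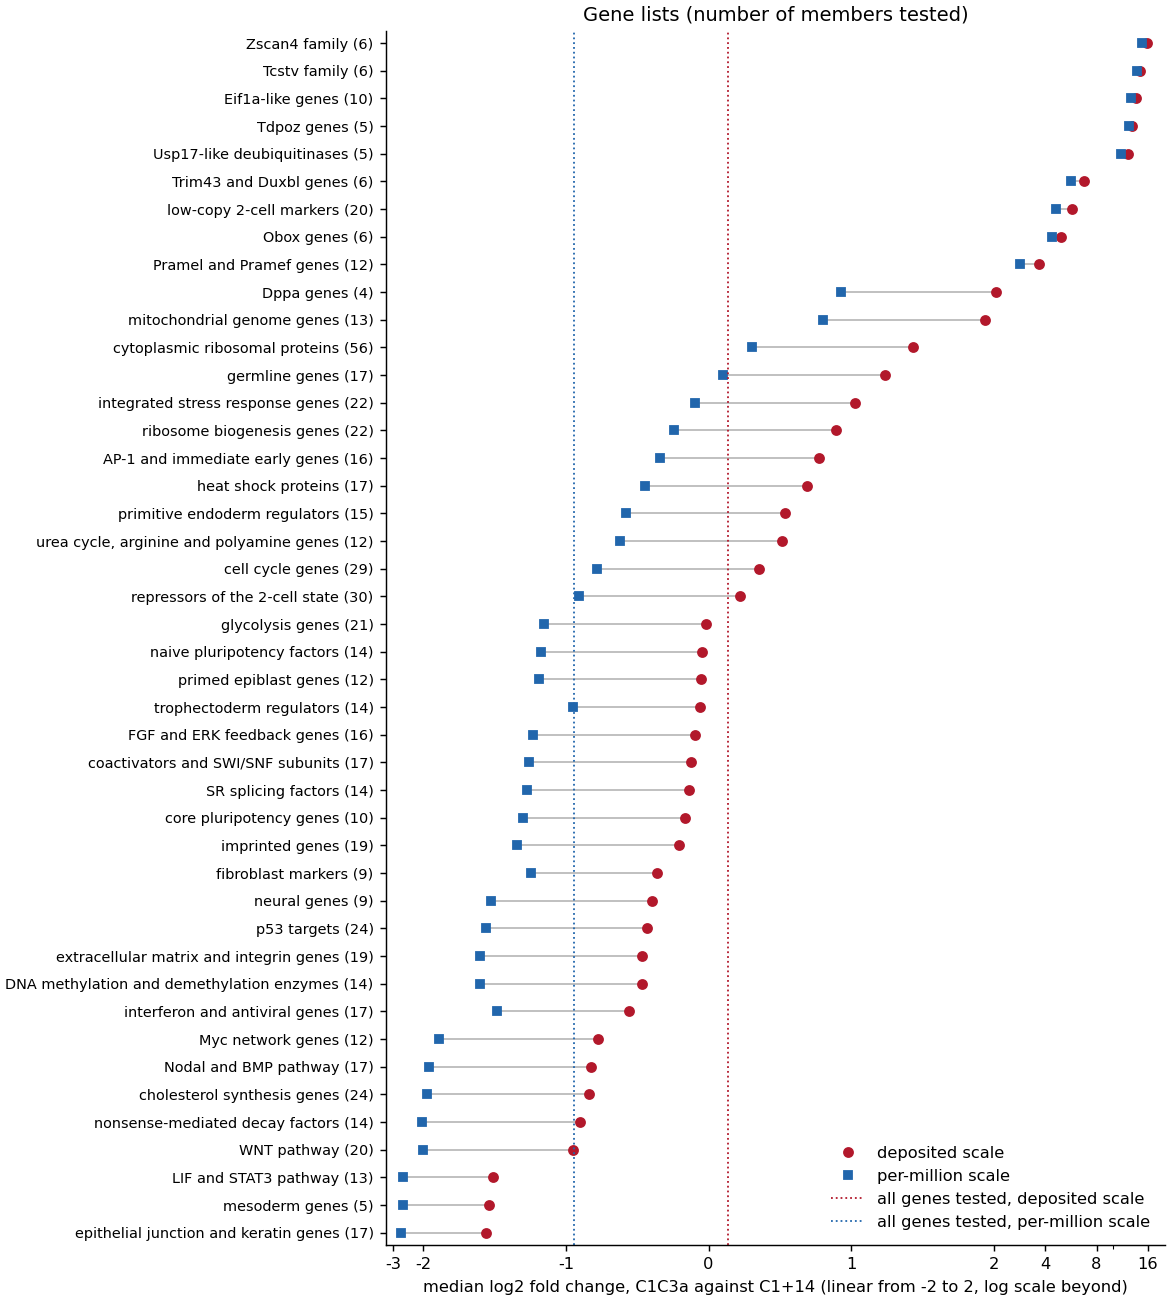
Median log2 fold change of C1C3a against C1+14 for the tested members of 44 gene lists (horizontal axis, linear between -2 and 2 and logarithmic beyond; 1 list per line with its number of genes), on the deposited scale (red circles) and on the per-million scale (blue squares). The dotted lines are the medians of all genes tested, 0.13 and -0.94: the 2-cell families stay far to the right on both scales, the ribosome biogenesis, stress response, AP-1, heat shock, primitive endoderm, urea cycle, cell cycle and 2-cell repressor medians change sign, and the junction and LIF lists lie furthest to the left with the mesoderm genes.

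Markers of other cell types were counted beside these results. The counts were near or below those of all genes, of which 23.4% rose and 17.3% fell, except for the falls in the small mesoderm and neural lists. Of 9 fibroblast markers tested, 0 rose and 1 fell, Pdgfrb (-4.72), and their summed level was 273 and 246 in C1C3a and 362 and 514 in C1+14 normalised reads. Without replicate 2 of C1C3a or replicate 2 of C1+14, 1 rose. A member of this list and a member of the neural list had 0 reads in all 4 libraries. Of 14 trophectoderm regulators 2 rose, the keratins Krt8 and Krt18 named above, and 1 fell, Tfap2c (-3.59), or 2 without replicate 1 of C1C3a, and the list summed to 1822 and 1659 in C1C3a and 1741 and 1947 in C1+14. The defining factor Cdx2 had 3.32 and 1.42 normalised reads in C1C3a and 8.04 and 8.68 in C1+14 and was not called. Of 15 primitive endoderm regulators 3 rose and 3 fell (6 rose without replicate 2 of C1+14), with a summed level of 14280.2 and 11314 in C1C3a and 7314 and 9768 in C1+14. Pdgfra, an early marker of that lineage, had 227 and 151 normalised reads in C1C3a and 46.0 and 56.4 in C1+14 (1.84, and 0.72 on the per-million scale), and Hnf4a, a factor of the visceral endoderm, 1.11 and 0 normalised reads in C1C3a and 36.5 and 45.3 in C1+14, and it was called lower. Of 5 mesoderm genes 0 rose and 2 fell (1 without replicate 1 of either group), with a summed level of 127 and 70.8 in C1C3a and 198 and 233 in C1+14. Of 9 neural genes 2 rose and 3 fell, with a summed level of 1928 and 1877 in C1C3a and 1564 and 1529 in C1+14. The dendritic protein gene Map2 had 41.0 and 36.8 normalised reads in C1C3a and 230.2 and 210.2 in C1+14 (-2.47). Against 12% of all genes higher and 44.4% lower on the per-million scale, the trophectoderm list had 0 higher and 5 lower, the primitive endoderm list 0 higher and 4 lower, the mesoderm list 0 higher and 3 lower, the neural list 1 higher and 6 lower and the fibroblast list 0 higher and 3 lower. The part of these genes in the other results was not tested.

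C3+14 has C3 and not C1 in its name, and C3+14 against mCherry uses 4 libraries that the comparison above does not. This asks how far the genes that differ with C3 in the name are the same in both settings. Limma called 10205 genes there (47.3% of those tested), 6391 higher (29.6%) and 3814 lower (17.7%). The higher share of the calls was 62.6% as deposited, 42.4% after quantile normalization and 37.4% on the per-million scale. Of the 5059 genes higher in C1C3a, 3929 (77.7%) were also higher in C3+14, which is 61.5% of the genes higher there, and 18 were lower. Of the 3740 genes lower in C1C3a, 2093 (56.0%) were also lower in C3+14 (54.9% of the genes lower there) and 198 were higher. Without shared-sequence genes the shares of the C1C3a lists were 74.9% for rises and 56.8% for falls. Across the 17355 genes without shared sequence the 2 sets of fold changes had a Pearson correlation of 0.757 and a Spearman correlation of 0.666, which describe genes that are not independent and come from 1 fit. By list, of the 7 LIF and STAT3 genes that fell in C1C3a 6 were among the 9 of 13 that fell in C3+14 against mCherry. For Myc network genes 4 of the 5 were among 6 of 12, and for decay factors 6 of the 6 were among 8 of 14, where 17.7% of all genes fell in C3+14. Fewer falls were shared in some other lists, beside 56.0% for all genes that fell in C1C3a. Also lower in C3+14 were 2 of the 9 cholesterol genes that fell, 6 of the 12 junction and keratin genes, 3 of the 6 WNT genes and 4 of the 7 imprinted genes. Stat3 had 549.5 and 598 normalised reads in C3+14 and 2571 and 2617 in mCherry (log2 fold change -2.18), near the -1.90 of C1C3a against C1+14. Zfp352 had 28261 and 30663 in C3+14 and 0 in both mCherry libraries.

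**Figure D5:**
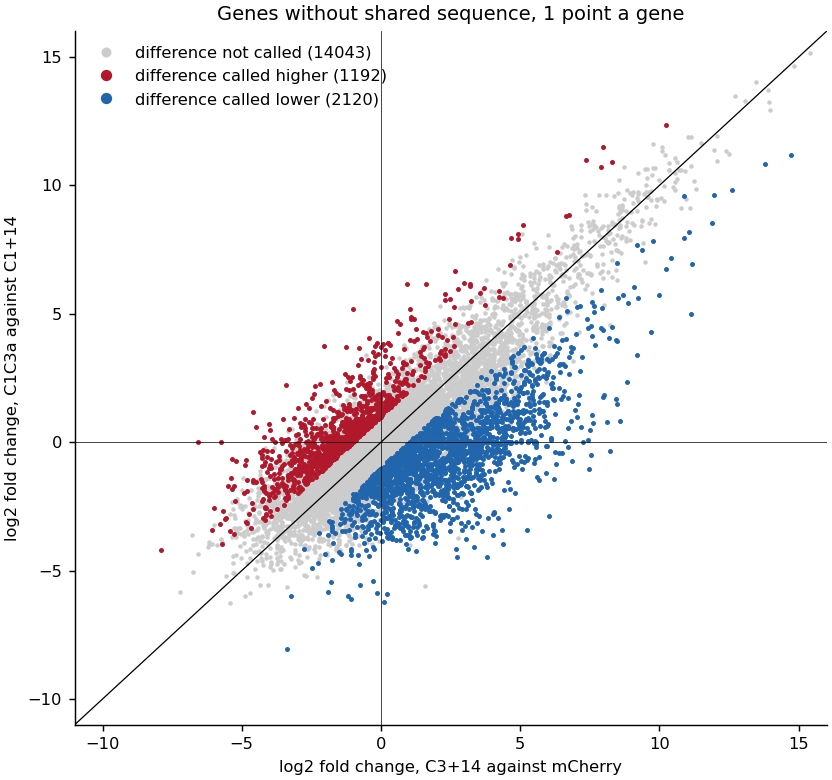
Log2 fold change of C1C3a against C1+14 (vertical axis) plotted against that of C3+14 against mCherry (horizontal axis) for genes without shared sequence, 1 point a gene, with the diagonal of equal change; red and blue mark genes for which the difference of the 2 changes was called. Of them 1192 lie above the diagonal (red) and 2120 below it (blue), the latter mostly genes that rose in C3+14.

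The difference between the 2 changes was tested gene by gene as an interaction in the same fit. It was called for 3838 genes, 17.8% of those tested, 1432 with a change more positive in C1C3a against C1+14 (6.63%) and 2406 more negative (11.1%). The more positive ones made up 37.3% of the calls as deposited and 16.7% on the per-million scale. Of the 2120 more negative ones without shared sequence, 1411 rose in C3+14 and 265 in C1C3a. Of the 1192 more positive ones, 678 fell in C3+14 and 141 in C1C3a. The mCherry libraries carry no DUX part while C1+14 does, so the 2 baselines differ. In C1+14 against mCherry, 6 of 14 naive factors and 7 of 22 ribosome biogenesis genes were lower and 0 higher. Of 24 cholesterol genes 5 were higher there and 0 lower. Such shifts of the baseline enter the difference, and their part in the list counts below was not tested. Library kind differs between the baselines as well. Of 14 naive factors, 8 had a more positive change in C1C3a against C1+14 and 0 a more negative one (5 without replicate 2 of C1C3a, and 5 on the per-million scale). In C3+14 against mCherry 10 of the 14 fell. Esrrb had 2232 and 2152 normalised reads in C3+14 and 13469 and 13881 in mCherry (log2 fold change -2.64 against -1.20, limma interaction adjusted p 0.0108, but 0.0507 without replicate 2 of C1C3a and 0.0635 on the per-million scale), and Nr5a2 1392 and 1357 and 1698 and 1701 (-0.31 against 1.91, adjusted p 8.97e-04). For both genes the mCherry libraries were above the C1+14 libraries. Cholesterol genes went the other way, with 8 of 24 more negative in C1C3a and 0 more positive (1 without replicate 2 of C1+14). Idi1, an isomerase of the pathway, had 1565 and 1629 in C3+14 and 2216 and 2018 in mCherry (-0.41 against -1.52, adjusted p 0.00157). Of 22 ribosome biogenesis genes 10 had a more positive change (6 without replicate 2 of C1C3a, 6 with TMM factors, 5 after quantile normalization and 1 on the per-million scale). The Zscan4 family had 4 of 6 and the Usp17-like family 4 of 5 with a more negative change. Usp17la had 46530.4 and 50209 normalised reads in C3+14 and 0 in both mCherry libraries, so the size of its change there depends on the pseudocount.

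C1C3b and C1C3c carry the same C1 and C3 names with another letter, and C1C3a was set against C1C3b to see where 2 chimeras of these names differ. Limma called 7683 genes (35.6% of those tested), 3731 higher in C1C3a (17.3%) and 3952 lower (18.3%), a higher share of 48.6% of the calls that was 20.5% on the per-million scale. This comparison shares the C1C3a libraries with the one against C1+14, so only the values are placed side by side. The 2-cell lists held 0.48 and 0.50% of the reads in C1C3b and 0.0854 and 0.0706% in C1C3c, between the 4.18 and 4.95% of C1C3a and the 0.0640 and 0.0699% of C1+14. Zfp352 had 55.3 and 28.2 normalised reads in C1C3b and 0 and 1.35 in C1C3c. Nelfa had 1178 and 1140.5 in C1C3b and 1002 and 1089 in C1C3c, beside 1200.2 and 1370.4 in C1+14 and 1355 and 1323 in mCherry. Spesp1, a protein of the sperm equatorial segment, had 7375 and 11539 in C1C3a and 9.65 and 5.63 in C1C3b (limma, log2 fold change 10.10, SE 0.33, adjusted p 1.25e-10). Bex6, of a family of small adaptor proteins, had 743 and 929 in C1C3a and 0 in all libraries of C1C3b, C1C3c and C1+14, with 407 and 319 in C3+14 and 82.5 and 104 in FL. In the other direction Ano5, a member of the anoctamin family of membrane proteins, had 311 and 230.0 in C1C3b against 2.21 and 0 in C1C3a, 0.731 and 4.96 in C1+14 and 87.1 and 68.0 in C3+14. Lefty2 had 29.8 and 22.5 in C1C3b and Fgf4 20.2 and 39.4, both far below C1+14, and Stat3 had 1139 and 1415, between C1C3a and C1+14.

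The word inactive in the name was checked by setting C1+14 against mCherry alone, with the reserve that these libraries are of different kinds. Limma called 3953 genes (18.3% of those tested), 2668 higher (12.4%) and 1285 lower (5.95%), and 2588 in all without replicate 1 of mCherry. The higher share of the calls was 67.5% as deposited and 80.3% on the per-million scale. Zfp352, Tcstv1 and Tcstv3 had 0 reads in all 4 of these libraries. Zscan4c had 6.58 and 1.86 normalised reads in C1+14 and 0 in both mCherry libraries. The 2-cell lists together held a smaller share of reads in C1+14 (0.0640 and 0.0699%) than in mCherry (0.0945 and 0.0964%). Most of that share lay in the low-copy markers, with 0.0495 and 0.0563% in C1+14 and 0.0768 and 0.0795% in mCherry. By list, 3 of 6 Zscan4 genes and 3 of 5 Usp17-like genes were called higher in C1+14 and 0 lower. The Zscan4 genes summed to 18.3 and 6.82 normalised reads in C1+14 and 0 in mCherry. Low-copy markers had 3 higher and 2 lower of 20, and Pramel and Pramef genes 2 higher and 2 lower of 12. Obox genes had 1 higher and 0 lower of 6, and Trim43 and Duxbl genes 0 higher and 2 lower of 6. In the Tcstv, Eif1a-like and Tdpoz lists 0 genes were called. Outside the 2-cell lists, several lists had more genes called lower than the 5.95% of all genes. Naive factors had 0 higher and 6 lower of 14, ribosome biogenesis genes 0 and 7 of 22, mitochondrial genome genes 0 and 7 of 13 and imprinted genes 3 and 8 of 19. Cholesterol genes had 5 higher and 0 lower of 24. How far the called genes reflect the library kind cannot be told apart from the construct.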

How the data were processed

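A stranded poly(A) kit and 500 ng of total RNA gave each library, per the labels' protocols. The deposited table holds a normalised signal, read counts that the authors divided by 1 size factor per library: whole reads were recovered for 100% of the 371750 values above 0 (tolerance 1e-06 of a read). Trim Galore 0.5.0, FastQC, DESeq2 and mm10 are named, per the submitters' processing notes, with no role, and the aligner, counter and annotation are not given in the sources used here. Symbols from GENCODE M21 matched 99.5% of 55487 genes.

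Genes with at least 10 normalised reads in at least 2 libraries were tested with limma 3.58.1 in R 4.3.3 (lmFit and eBayes with a trend) on log2(value + 1), over all 14 libraries of 7 groups, with Benjamini-Hochberg adjustment over all genes. A fold change is on this log2(value + 1) scale and understates low genes. edgeR 4.0.16 and DESeq2 1.42.0 on the recovered reads, 2 other pseudocounts (0.1 and 8), filters, TMM, quantile and per-million scaling, left-out libraries and a replicate block were alternatives. On simulated counts for C1C3a against C1+14 (17460 genes, 200 changed) 195 changed genes were recovered with 5 false calls. The simulation used the same mean for all groups, a fixed dispersion and the known size factors, and changed few genes, none at low levels. It therefore cannot speak to the choice of scaling or to data in which a large part of the genes is called.

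Named genes were taken from the 12 highest and 12 lowest changes without shared sequence and at least 100 normalised reads in the higher group, the largest changes and highest levels of 44 gene lists, and the 5 highest and lowest differences. Genes shown with promoters, 2 histone genes and the genes AU018091, Mvd, Socs2, Zfp750 and Zscan5b were added after their values were seen. The members and lists were chosen with earlier results of these data known. Sharing was measured on 200 sampled stretches of 50 bases per gene. Values of some members of the lists are not reported here. The libraries of the series outside this table were not used here.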

Additional observations from a re-analysis of the deposited data

Results flagged for a closer look

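The change from C1+14 to C1C3a and the change from mCherry to C3+14 differed by the limma interaction test in 10 genes picked by the rule for named genes, 5 with the most positive and 5 with the most negative difference on the log2 scale. Arhgap8 had 2272 and 2839.8 normalised reads in C1C3a, 65.8 and 71.3 in C1+14, 116 and 154 in C3+14 and 243 and 292 in mCherry (difference 6.19, adjusted p 9.60e-05). It rose in C1C3a and was lower in C3+14 than in mCherry. Snai1, a repressor of E-cadherin in epithelial-mesenchymal transition, had 770.4 and 1070.2 normalised reads in C1C3a, 9.50 and 14.3 in C1+14, 127 and 149 in C3+14 and 77.2 and 66.9 in mCherry (difference 5.24, adjusted p 0.00112), and its rise from C1+14 to C1C3a was the larger one. Chac1, a glutathione-degrading enzyme of the stress response, had 46.5 and 34.0 normalised reads in C1C3a, 3.65 and 14.9 in C1+14, 13.4 and 14.6 in C3+14 and 153 and 162 in mCherry (difference 5.65, adjusted p 0.00203), and Cdc42ep1, an effector of CDC42, had 11.1 and 8.49 normalised reads in C1C3a, 2.19 and 6.20 in C1+14, 3.35 and 3.24 in C3+14 and 95.0 and 109 in mCherry (difference 5.74, adjusted p 9.05e-04). For both genes mCherry was the highest of the 4 groups and the C1C3a level was low. Id3, an inhibitor of helix-loop-helix factors, had 95.2 and 150.1 normalised reads in C1C3a, 110.4 and 55.8 in C1+14, 26.8 and 9.72 in C3+14 and 405 and 365 in mCherry (difference 5.08, adjusted p 0.026). This call was lost with 0.1 as pseudocount, with no filter, and without replicate 1 or 2 of C1C3a, replicate 2 of C1+14, replicate 2 of C3+14 or either mCherry replicate.

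The negative differences were of genes that rose from near 0 in mCherry to C3+14. Alpk1, a kinase that senses bacterial sugars, had 22.1 and 17.0 normalised reads in C1C3a, 126 and 172 in C1+14, 95.5 and 134 in C3+14 and 0.660 and 0.858 in mCherry (difference -8.88, adjusted p 3.10e-06), with C1+14 and not mCherry near the level of C3+14. Khdrbs2, an RNA-binding protein, had 86.3 and 9.91 normalised reads in C1C3a, 41.7 and 34.1 in C1+14, 379 and 384 in C3+14 and 0.660 and 0 in mCherry (difference -8.54, adjusted p 2.47e-04, and -10.04 to -7.04 when 1 library is left out). Fmo2, a flavin monooxygenase, had 19.9 and 0 normalised reads in C1C3a, 9.50 and 7.44 in C1+14, 154 and 198 in C3+14 and 0 and 0 in mCherry (difference -8.50, adjusted p 0.00125, -10.69 to -6.30 likewise). Mab21l2, a gene of eye development, had 13.3 and 1.42 normalised reads in C1C3a, 6.58 and 8.06 in C1+14, 332 and 322 in C3+14 and 0.660 and 0.858 in mCherry (difference -8.04, adjusted p 3.26e-04, -9.32 to -6.76), and Cyp2g1, a cytochrome P450 of the olfactory epithelium, had 2.21 and 0 normalised reads in C1C3a, 0 and 0 in C1+14, 410.5 and 363 in C3+14 and 0 and 0 in mCherry (difference -7.75, adjusted p 1.39e-04, -8.60 to -6.91). In edgeR on the recovered reads the Cyp2g1 difference was not called. The mCherry libraries hold at most 1 read each for Alpk1, Khdrbs2, Fmo2, Mab21l2 and Cyp2g1, so the sizes of these differences depend on the pseudocount, and the C1C3a replicates lay far apart for Khdrbs2, Fmo2 and Mab21l2.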

How the results depend on the processing

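The number of genes called in C1C3a against C1+14 stayed within 1.5 times of 8799 in the alternatives run, with 8817 by edgeR and 8337 by DESeq2 on the recovered reads and 12173 on the per-million scale, but its split into higher and lower genes depended on the scaling. The share of called genes that were higher went from 57.5% to 39.1% after quantile normalization, 21.3% on the per-million scale and 46.3% without shared-sequence genes. For C3+14 against mCherry it was 42.4% after quantile normalization and 37.4% on the per-million scale. On the per-million scale it was 16.7% for the difference of the changes, 20.5% for C1C3a against C1C3b and 80.3% for C1+14 against mCherry. The per-million setting was chosen after seeing the data. Leaving out 1 library at a time gave 7684 to 8481 calls for C1C3a against C1+14, 9047 to 9465 for C3+14 against mCherry, 2591 to 3860 for the difference, 6373 to 7505 for C1C3a against C1C3b and 2588 to 3548 for C1+14 against mCherry, whose lowest count came without mCherry replicate 1. The corresponding higher shares were 55.7 to 60.4%, 62.5 to 63.5%, 35.0 to 41.0%, 46.4 to 51.1% and 61.8 to 71.7%. Of the named genes, 100 kept their direction and side of the threshold after quantile normalization, 3 lost their call and 7 gained one. On the per-million scale 92 kept both, 11 lost their call and 7 gained one. Mvd turned to -0.10 on the per-million scale and Ncl to -0.27 after quantile normalization. The cause was not tested. The replicate numbers did not pair libraries across groups: deviations of same-numbered libraries correlated between -0.101 and 0.0501 over 21 pairs of groups, and a fit with the replicate number as a block called 8718 genes, 8659 of them the same. With 2 libraries a group an exact permutation test of 1 gene cannot go below p = 0.333, so the calls rest on the spread that limma pools over genes, and the lone library left in a group is assumed to vary like the others.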
